A study of Mus musculus with 7 samples.

Results

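The 36 genes described here encode proteins that hold epithelial cells to each other: adherens junction, desmosome, tight junction and gap junction proteins, and adhesion receptors of the cell surface. They were chosen by name, and each was read from the probe set that carries its symbol alone, the brightest where a gene has several. All 36 were measured, each by 1 probe set, among 19938 genes on the array. Primary hepatocytes of male C57BL/6J mice, isolated with collagenase and a Percoll gradient, were transfected with 1 µg of miR-709 mimic, or with 1 µg of the worm miRNA Cel-239b as control, and total RNA was collected after 24 h. No gene was deleted or added in either group, and the age of the mice was not given in the sources used here. The 7 arrays (Affymetrix Mouse Gene 1.0 ST) came from 4 replicates with miR-709 (A to D) and 3 with Cel-239b (B to D). Whether the replicates were separate mice or cultures is not stated, so the p-values cover the spread among these 7 arrays, which may be technical.

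Hepatocytes are polarised epithelial cells. Tight junctions seal the bile canaliculus between neighbouring hepatocytes, adherens junctions and desmosomes tie the membrane to actin and to keratin filaments, and gap junctions let small molecules pass from cell to cell. Cadherins make the contact in adherens junctions and desmosomes, catenins and plakins link them to the cytoskeleton, and claudins, occludin and its relatives form the tight junction strand. A miRNA can lower the mRNAs it binds or hold back their translation, and mRNAs that it does not bind can follow in either direction.

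Values are log2 signals after RMA, so a difference of 1 is a doubling, and signals of different probe sets are not compared as levels. Medians of the 7 arrays were 5.04 to 5.07. The averaged signal of 9 hepatocyte markers was 11.62 to 11.70 on the Cel-239b arrays and 11.81 to 11.94 on the miR-709 arrays. The median fold change of the 9 was 0.03, and limma called 3 of them, named below. For 8 cholangiocyte markers the averaged signal was 6.42 to 6.45 on the Cel-239b arrays and 6.06 to 6.25 on the miR-709 arrays. Over all 7 arrays it was 4.83 to 4.96 for 10 endothelial markers and 4.39 to 4.47 for 10 stellate cell and fibroblast markers. It was 4.92 to 5.0 for 10 Kupffer cell and leukocyte markers and 4.22 to 4.39 for 5 mesothelial markers. Replicates C and D with miR-709 stood apart in interferon-stimulated genes, since all 15 of those measured were higher on C and on D than on A and B. Relative to the Cel-239b mean, these 15 genes averaged -0.11, -0.03, 0.96 and 0.97 on miR-709 replicates A to D, and -0.18, -0.05 and 0.24 on Cel-239b replicates B, C and D. Between the treatments limma called 0 of the 15, with an unadjusted p under 0.05 in 3, and the methods' t-test called 0. Over all genes limma called 3.28%, and 15.0% had an unadjusted p under 0.05.

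Junction genes moved in both directions with miR-709. *Mpzl2*, *Ceacam1* and *Pkp2* were lower and *Icam1*, *Ocln*, *Dsc2* and *Marveld2* were higher, at an adjusted p under 0.05 from limma, which tests each gene between the treatments and adjusts over all 19938 genes. These are 7 of 36 genes (19.4%), 3 lower and 4 higher, where 1.47% of all genes were lower and 1.81% higher. The 2 sets differ in brightness, with 6 of the 36 but 8968 of all 19938 genes at a mean signal under 5. The part of brightness in these shares was not tested, and *Mpzl2* was known from the study to be lower. An unadjusted p under 0.05 was reached by 14 of the 36, 7 in each direction, against 15.0% of all genes. In 11 genes the arrays of the treatments did not overlap, with miR-709 below in 6 and above in 5, which held for 12.3% of all genes. The fold change was below 0 in 18 genes and above 0 in 18, with a median of 0.00 (0.01 over all genes) and a median size of 0.07 (0.08 over all genes). The methods' t-test called 3 of the 36 after adjustment, *Mpzl2*, *Icam1* and *Dsc2*, and 1.13% of all genes. The study names no adjustment of that test, so its own calls were less strict than these.

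**Figure D1:**
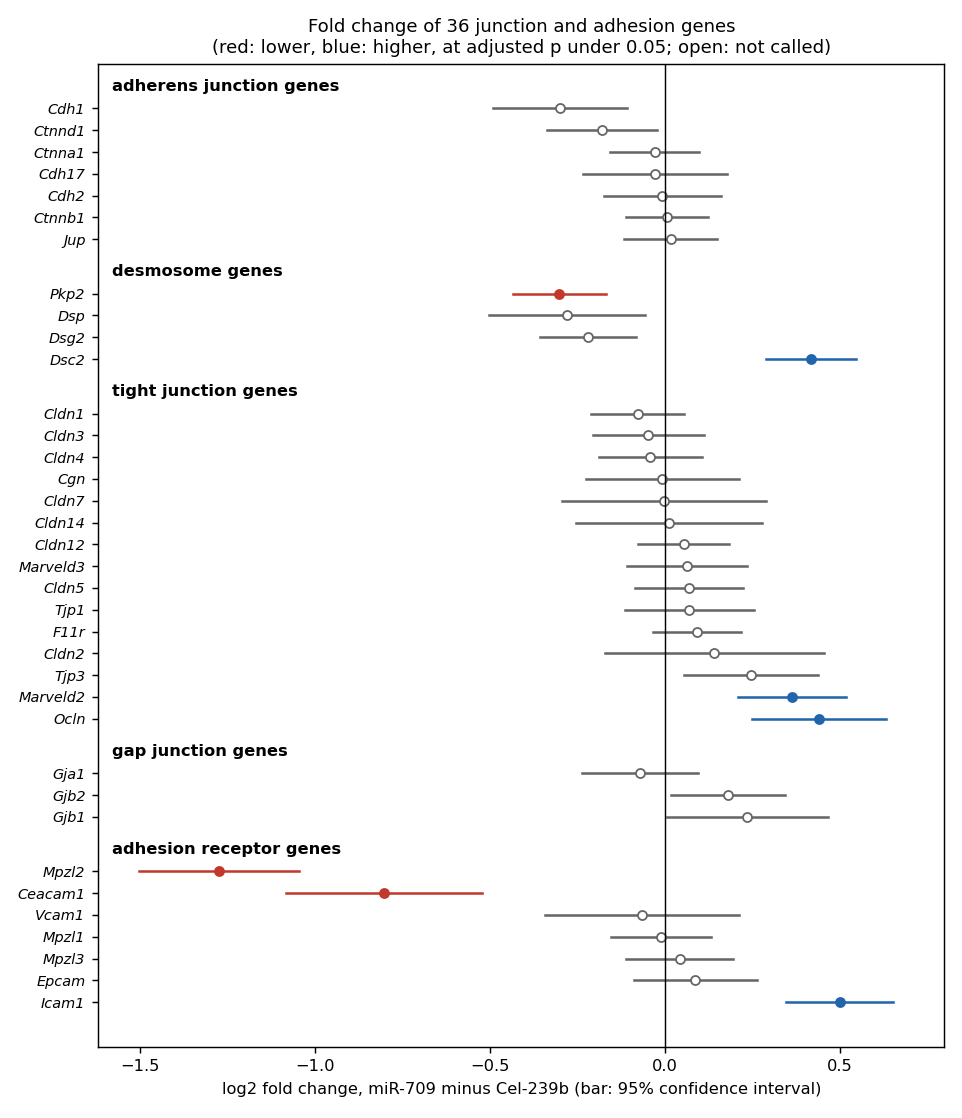
Log2 fold change of the 36 genes, miR-709 minus Cel-239b (points), with the 95% confidence interval from limma (bars), grouped by the structure the protein belongs to. Filled points passed an adjusted p of 0.05, red for lower and blue for higher, and open points did not. *Mpzl2* lies farthest to the left at -1.27 and *Icam1* farthest to the right at 0.50.

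Among 7 adherens junction genes limma called none at the adjusted threshold, and 2 had an unadjusted p under 0.05, both lower. The methods' t-test called none of the 7 after adjustment either. *Cdh1*, E-cadherin, the adherens junction cadherin of epithelia, was 10.25, 10.20 and 10.14 on Cel-239b replicates B, C and D and 10.05, 9.98, 9.70 and 9.86 on miR-709 replicates A, B, C and D. The arrays did not overlap, and replicates C and D, which stood apart in interferon genes, were the lowest of the 7. Its log2 fold change was -0.30 (standard error 0.09, limma adjusted p = 0.117), or -0.18 without miR-709 replicates C and D. *Ctnnd1*, p120 catenin, which keeps cadherins at the membrane, went from 9.73 ± 0.08 (SD, n = 3) to 9.55 ± 0.09 (SD, n = 4), with a fold change of -0.18 and limma adjusted p = 0.257.

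The catenins that carry the link from cadherin to actin showed smaller differences. *Ctnnb1*, β-catenin, was 10.82 ± 0.01 (SD, n = 3) with Cel-239b and 10.83 ± 0.04 (SD, n = 4) with miR-709. Its fold change of 0.01 had a 95% confidence interval of -0.11 to 0.12. For *Ctnna1*, α-catenin, the difference was -0.03, and for *Jup*, plakoglobin, which serves adherens junctions and desmosomes, it was 0.02. *Cdh2*, N-cadherin, which hepatocytes carry beside E-cadherin, differed by -0.01 (95% confidence interval -0.17 to 0.16) and *Cdh17*, an intestinal cadherin with a mean signal under 5, by -0.03.

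The 4 desmosome genes split. *Dsc2*, desmocollin 2, and *Dsg2*, desmoglein 2, are the cadherins of the hepatocyte desmosome, *Pkp2*, plakophilin 2, is a plaque protein that binds their tails, and *Dsp*, desmoplakin, joins the plaque to keratin filaments. *Dsc2* rose from 8.76, 8.78 and 8.82 on Cel-239b replicates B, C and D to 9.24, 9.27, 9.17 and 9.14 on miR-709 replicates A, B, C and D. The highest control array lay well below the lowest miR-709 array. The log2 fold change was 0.42 (standard error 0.06, limma adjusted p = 0.00427), and 0.47 without replicates C and D with miR-709 (adjusted p = 0.0364).

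*Dsg2* stood at 9.48 ± 0.03 (SD, n = 3) with Cel-239b and 9.27 ± 0.08 (SD, n = 4) with miR-709. Its fold change was -0.22 (standard error 0.06, limma adjusted p = 0.110), so the direction was opposite to that of *Dsc2* and the gene did not pass the test. Within an array, *Dsc2* minus *Dsg2* was -0.75, -0.70 and -0.64 with Cel-239b and -0.08, -0.04, 0.02 and -0.14 with miR-709. Only the shift of this difference between treatments can be read, and it was 0.64 in favour of *Dsc2*. An exact permutation test gave a 2-sided p = 0.0571, the smallest that 4 arrays against 3 can give. The arrays of both genes did not overlap, in opposite directions, so this p was fixed in advance and adds no support. This pair was chosen after its values were seen.

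*Pkp2* fell from 9.71, 9.66 and 9.68 on Cel-239b replicates B, C and D to 9.49, 9.35, 9.34 and 9.35 on miR-709 replicates A, B, C and D. The miR-709 arrays lay below all controls, with A between the others and the controls. The log2 fold change was -0.30 (standard error 0.06, limma adjusted p = 0.0263). Its call was lost without Cel-239b replicate B (adjusted p = 0.0898), C (0.0799) or D (0.0635), without miR-709 replicate B (0.0801), C (0.0778) or D (0.0820), without miR-709 replicates C and D together (0.205) and with the methods' t-test (0.0693). *Dsp* went from 9.997 ± 0.19 (SD, n = 3) to 9.72 ± 0.13 (SD, n = 4), a fold change of -0.28 (limma adjusted p = 0.213), and its arrays overlapped.

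**Figure D2:**
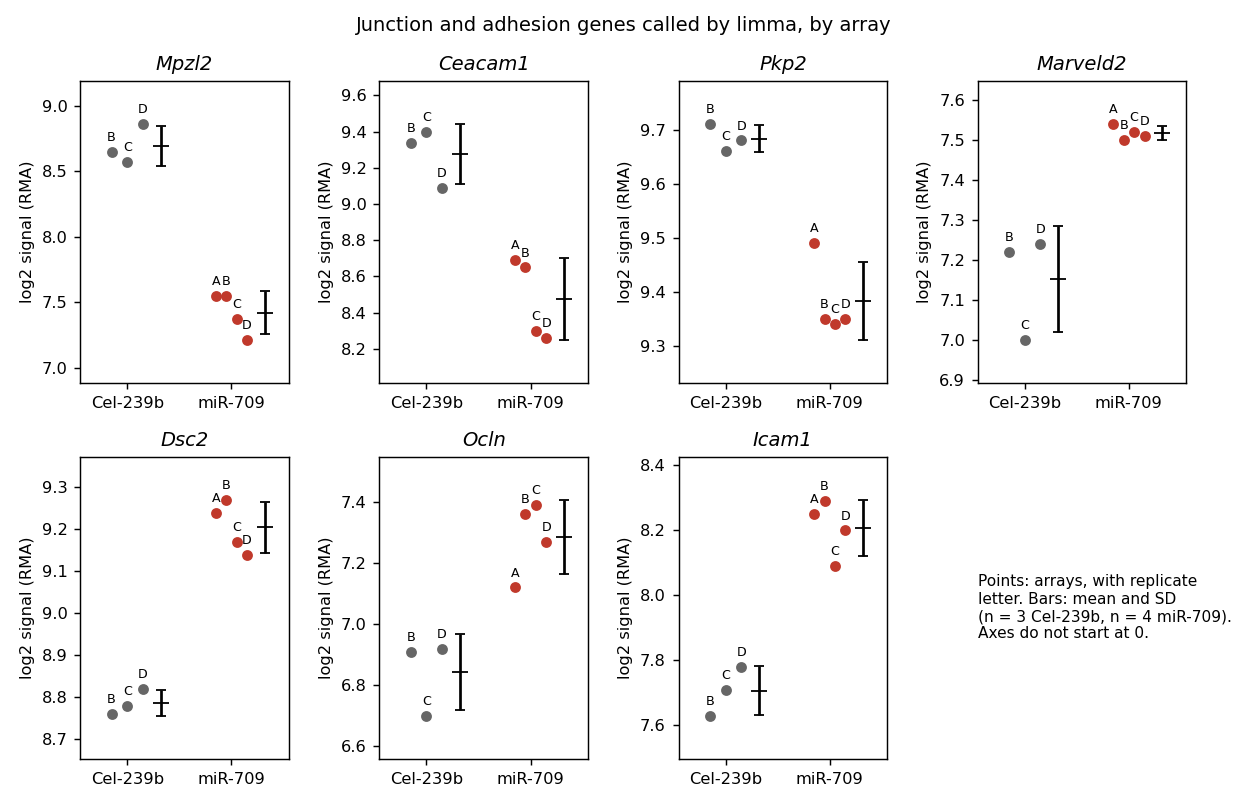
Log2 signal (RMA) on each array for the 7 genes called by limma, with the replicate letter beside each point (grey, Cel-239b, n = 3, and red, miR-709, n = 4) and the mean with SD to the right. The vertical axes differ between panels and do not begin at 0. In none of the 7 panels do the treatments overlap, and in *Ceacam1* replicates C and D lie at 8.30 and 8.26, below A and B at 8.69 and 8.65.

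Of 15 tight junction genes, 2 were higher, none was lower and 13 were not called. The genes that rose were *Ocln* and *Marveld2*. Occludin and the *Marveld2* product, tricellulin, are relatives that span the membrane through a MARVEL domain, occludin along the strand between neighbouring cells and tricellulin where several cells meet. *Ocln* was 6.91, 6.70 and 6.92 on Cel-239b replicates B, C and D and 7.12, 7.36, 7.39 and 7.27 on miR-709 replicates A, B, C and D, with replicate A closest to the controls. Its log2 fold change was 0.44 (standard error 0.08, limma adjusted p = 0.0231). *Marveld2* was 7.22, 7.0 and 7.24 with Cel-239b and 7.54, 7.50, 7.52 and 7.51 with miR-709. The miR-709 arrays were closer together than the control arrays (SD 0.02 against 0.13), and the log2 fold change was 0.36 (standard error 0.07, limma adjusted p = 0.0220). The family's other member on the list, *Marveld3*, was dim at 4.48 ± 0.15 (SD, n = 3) and 4.55 ± 0.06 (SD, n = 4) and differed by 0.06 (limma adjusted p = 0.760).

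Without miR-709 replicates C and D the fold changes of *Ocln* and *Marveld2* were 0.40 and 0.37, at adjusted p = 0.228 and 0.185 from limma. *Ocln* lost its call without Cel-239b replicate B (adjusted p = 0.0634), C (0.103) or D (0.050) and without miR-709 replicate B (0.0771), C (0.0757) or D (0.0735), and *Marveld2* without miR-709 replicate A (0.0671), B (0.0608), C (0.0674) or D (0.0674). By the methods' t-test neither passed (adjusted p = 0.153 for *Ocln* and 0.105 for *Marveld2*).

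*Ocln* and *Marveld2* are neighbours among the protein-coding genes of mouse chromosome 13 and are read from the same strand. The next protein-coding gene beyond *Marveld2*, *Rad17*, had a fold change of 0.17 (standard error 0.07, limma adjusted p = 0.308). Their promoters are shown since the genes lie side by side and rose together. Of the 2 RefSeq starts listed for each gene, the outermost was used. The 250 bases before it in GRCm38.p6, 5′ to 3′ on the minus strand, lie at chr13:100552719-100552968 for *Ocln* and chr13:100616972-100617221 for *Marveld2*, with the GC box (GGGCGG on either strand) in capitals.
Ocln: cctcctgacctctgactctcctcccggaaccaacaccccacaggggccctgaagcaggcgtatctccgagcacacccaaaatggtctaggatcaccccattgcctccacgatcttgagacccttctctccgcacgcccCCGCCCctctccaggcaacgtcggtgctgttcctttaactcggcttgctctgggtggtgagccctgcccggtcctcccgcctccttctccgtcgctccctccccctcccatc
Marveld2: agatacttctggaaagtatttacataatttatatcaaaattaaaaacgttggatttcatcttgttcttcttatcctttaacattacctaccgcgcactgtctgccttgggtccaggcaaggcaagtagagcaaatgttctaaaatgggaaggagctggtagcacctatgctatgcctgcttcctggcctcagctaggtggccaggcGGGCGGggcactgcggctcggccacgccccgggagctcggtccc
Each window holds 1 GC box, which begins 112 bases before the start of *Ocln* and 44 bases before that of *Marveld2*. Of 32851 promoters of the same length, 32.7% hold this motif, as do 23 of the 38 promoters (60.5%) of the 25 junction genes in the table. CAGGTG, the E-box that SNAIL and ZEB repressors bind, is in neither window. It was found in 11 of the 38 (28.9%) and in 17.2% of all promoters. The motifs were chosen with the values known, and a match in letters is not a measured site.

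The other tight junction genes showed smaller differences. *Tjp3*, ZO-3, a scaffold under the strand, stood at 6.94 ± 0.01 (SD, n = 3) with Cel-239b and 7.19 ± 0.16 (SD, n = 4) with miR-709. The fold change was 0.25 (limma adjusted p = 0.198), with arrays that did not overlap and replicate C, at 6.98, next to the controls. The other 12 had fold changes from -0.08 for *Cldn1*, a sealing claudin of hepatocytes, to 0.14 for *Cldn2*, a claudin that forms cation pores. Scaffold genes were within this range, with *Tjp1*, ZO-1, at 0.07 and *Cgn*, cingulin, at -0.01, and so was *F11r*, the junctional adhesion molecule JAM-A, at 0.09. *Cldn2* was 7.82, 7.69 and 7.93 with Cel-239b and 8.16, 8.23, 7.66 and 7.77 with miR-709. Replicates A and B were above every control, while C and D lay within or below the controls. The claudins *Cldn3*, *Cldn4*, *Cldn5*, *Cldn7*, *Cldn12* and *Cldn14* had fold changes between -0.05 and 0.07, none over 0.01 above its standard error.

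*Gjb1* and *Gjb2* encode the connexins that form the gap junctions of hepatocytes. Neither passed the adjusted threshold. *Gjb1* went from 7.26 ± 0.13 (SD, n = 3) to 7.50 ± 0.18 (SD, n = 4), a fold change of 0.24 (limma adjusted p = 0.316), and *Gjb2* from 9.28 ± 0.11 to 9.47 ± 0.08, a fold change of 0.18 (limma adjusted p = 0.271). Both had an unadjusted p under 0.05 and arrays that overlapped. *Gja1*, a connexin gene that is typical of other liver cells, had a mean signal of 4.50 and differed by -0.07.

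Among 7 adhesion receptors *Mpzl2* and *Ceacam1* were lower, *Icam1* was higher and the other 4 were not called. *Mpzl2*, an epithelial immunoglobulin-like protein of the myelin protein zero family that adheres to itself on the next cell, showed the largest change of the 36 genes. It fell from 8.65, 8.57 and 8.86 on Cel-239b replicates B, C and D to 7.55, 7.55, 7.37 and 7.21 on miR-709 replicates A, B, C and D. More than 1 log2 unit parted the lowest control from the highest miR-709 array. The log2 fold change was -1.27 (standard error 0.10, 95% confidence interval -1.502 to -1.04, limma adjusted p = 2.6e-04), or 2.42-fold lower, and it was -1.14 without miR-709 replicates C and D (adjusted p = 0.0153). This gene was known from the study to be lower on these arrays, so its direction is not independent evidence.

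The relatives of *Mpzl2* did not pass the test. *Mpzl3*, its neighbour on the chromosome, was 6.74 ± 0.05 (SD, n = 3) with Cel-239b and 6.78 ± 0.10 (SD, n = 4) with miR-709, a fold change of 0.04 (limma adjusted p = 0.833). *Mpzl1*, a receptor that binds the phosphatase SHP-2, differed by -0.01 (95% confidence interval -0.15 to 0.13).

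*Ceacam1*, a bile canalicular adhesion protein that also takes part in insulin clearance by the liver, fell from 9.34, 9.40 and 9.09 on Cel-239b replicates B, C and D to 8.69, 8.65, 8.30 and 8.26 on miR-709 replicates A, B, C and D. The arrays did not overlap, and C and D were lower than A and B. The log2 fold change was -0.80 (standard error 0.12, limma adjusted p = 0.00790), or 1.74-fold lower. It was -0.61 without miR-709 replicates C and D, where the call was lost (adjusted p = 0.0853), as it was without Cel-239b replicate B (0.0539) or C (0.0596) and with the methods' t-test (0.125). The neighbouring gene *Ceacam2*, a close relative whose transcripts may share probes with it, had a mean signal of 3.46 and a fold change of 0.17 (limma adjusted p = 0.430).

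*Icam1*, the ligand of leukocyte integrins, which rises in hepatocytes with inflammatory signals, was 7.63, 7.71 and 7.78 with Cel-239b and 8.25, 8.29, 8.09 and 8.20 with miR-709. All miR-709 arrays were above the controls. The log2 fold change was 0.50 (standard error 0.07, limma adjusted p = 0.00396), or 1.41-fold higher, and it was 0.56 without replicates C and D, in which interferon genes were higher (adjusted p = 0.0356). *Vcam1*, another integrin ligand induced in inflammation, had a mean signal of 4.83 and differed by -0.07 (95% confidence interval -0.34 to 0.21). Of 18 measured targets of NF-kB, a transcription factor of inflammation, *Bcl3*, a nuclear partner of NF-kB, was higher (log2 fold change 0.29, standard error 0.06, adjusted p = 0.0313), none was lower and the other 17 were not called. The median over the 18 was 0.06. Limma called 5.56% of them, against 3.28% of all genes. An unadjusted p under 0.05 was reached by 1 of the 18, against 15.0% of all genes. The call of *Bcl3* was lost without any single array (adjusted p = 0.0575 to 0.0915), after cyclic loess (0.0549) and with the methods' t-test (0.0786).

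Of the called receptors, *Icam1* and *Ceacam1* have an entry in the promoter table used here, and their promoters are shown since the genes moved in opposite directions. Each is given as the 250 bases before the RefSeq start in GRCm38.p6, 5′ to 3′ on the gene's own strand. That of *Icam1* lies at chr9:21015690-21015939 (plus strand) and that of *Ceacam1* at chr7:25477626-25477875 (minus strand). The start used for *Ceacam1* lies inside the annotated gene, so that the last 22 of its bases belong to the gene. Capitals mark matches on either strand to CAGGTG (the E-box), GGGCGG (the GC box), GGNNNTTCC (an NF-kB-like motif) and TTCNNNGAA (a STAT-like motif).
Icam1: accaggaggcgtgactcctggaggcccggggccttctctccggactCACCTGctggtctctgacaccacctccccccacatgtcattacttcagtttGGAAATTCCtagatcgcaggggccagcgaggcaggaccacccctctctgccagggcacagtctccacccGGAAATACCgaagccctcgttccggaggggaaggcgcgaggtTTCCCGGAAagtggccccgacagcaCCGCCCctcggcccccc
Ceacam1: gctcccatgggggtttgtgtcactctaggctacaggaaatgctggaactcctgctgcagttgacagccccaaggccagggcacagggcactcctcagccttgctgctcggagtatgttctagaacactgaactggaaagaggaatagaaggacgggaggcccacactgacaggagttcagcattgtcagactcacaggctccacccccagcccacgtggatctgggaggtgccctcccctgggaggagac
In *Icam1* the NF-kB-like letters begin at 153 and at 84 bases before the start, the STAT-like letters at 42, the GC box at 17 and the E-box at 204. The *Ceacam1* window holds none of the 4 motifs. The NF-kB-like motif is in 15.7% of 32851 promoters and in 2 of the 38 junction gene promoters (5.26%), and the STAT-like motif in 7.02% and in 5 of the 38 (13.2%). No overlap between these matches occurs in the windows printed. These genes and motifs too were chosen with the values known, and a match in letters is not a measured site. A link between the matches and the fold changes was not tested.

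*Epcam*, an adhesion protein of bile duct cells and progenitors, had a mean signal of 4.86 and differed by 0.09. It is on the list of 8 cholangiocyte markers together with *Cldn4* and *Cldn7*. On that list *Krt19*, a keratin of bile duct cells, was lower (log2 fold change -1.23, standard error 0.26, limma adjusted p = 0.0377) and 7 did not pass the test. Limma thus called 12.5% of the list, against 3.28% of all genes. In 4 of the 8 an unadjusted p under 0.05 was found, all with lower signals on the miR-709 arrays, against 15.0% of all genes. The fold change was below 0 in 7. A mean signal under 5 was found for 4 of the 8, *Epcam*, *Cldn7*, *Cftr* and *Prom1*. *Krt19* was 9.71, 9.50 and 9.53 on Cel-239b replicates B, C and D and 8.97, 8.73, 7.91 and 7.79 on miR-709 replicates A, B, C and D, with C and D the lowest. Without C and D its fold change was -0.73 (limma adjusted p = 0.0531). The list as a whole averaged -0.18, -0.18, -0.33 and -0.38 on miR-709 replicates A to D, as a difference from the Cel-239b mean. *Krt19* weighs most in this average. Fold changes of the other 7 ran from -0.30 for *Sox9* to 0.09 for *Epcam*. *Cldn4*, with a mean signal of 11.89, was at -0.04 and *Cldn7* at -0.002. The call of *Krt19* was lost without any single array other than miR-709 replicate A. Its limma adjusted p then ran from 0.0530 without miR-709 replicate B to 0.158 without Cel-239b replicate B. The methods' t-test with adjustment did not call *Krt19* either (0.273). The study, which names no adjustment, reported *Krt19* as lower on these arrays, so its direction is not independent evidence. In bulk RNA, fewer cells of a type and less RNA per cell cannot be told apart, and the part of bile duct cells in the fall of *Mpzl2*, *Ceacam1* and *Pkp2* was not tested. No endothelial, stellate, Kupffer cell or mesothelial marker was called by limma, at list averages of at most 5.0. Of these markers 1, 2, 0 and 0 had an unadjusted p under 0.05, against 15.0% of all genes, and after adjustment 0 passed the methods' t-test. Single markers were brighter than their list, such as *Cd68* at a mean signal of 10.67 and *Cd14* at 7.91. The other 8 of the 10 Kupffer cell and leukocyte markers were under 5.

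**Figure D3:**
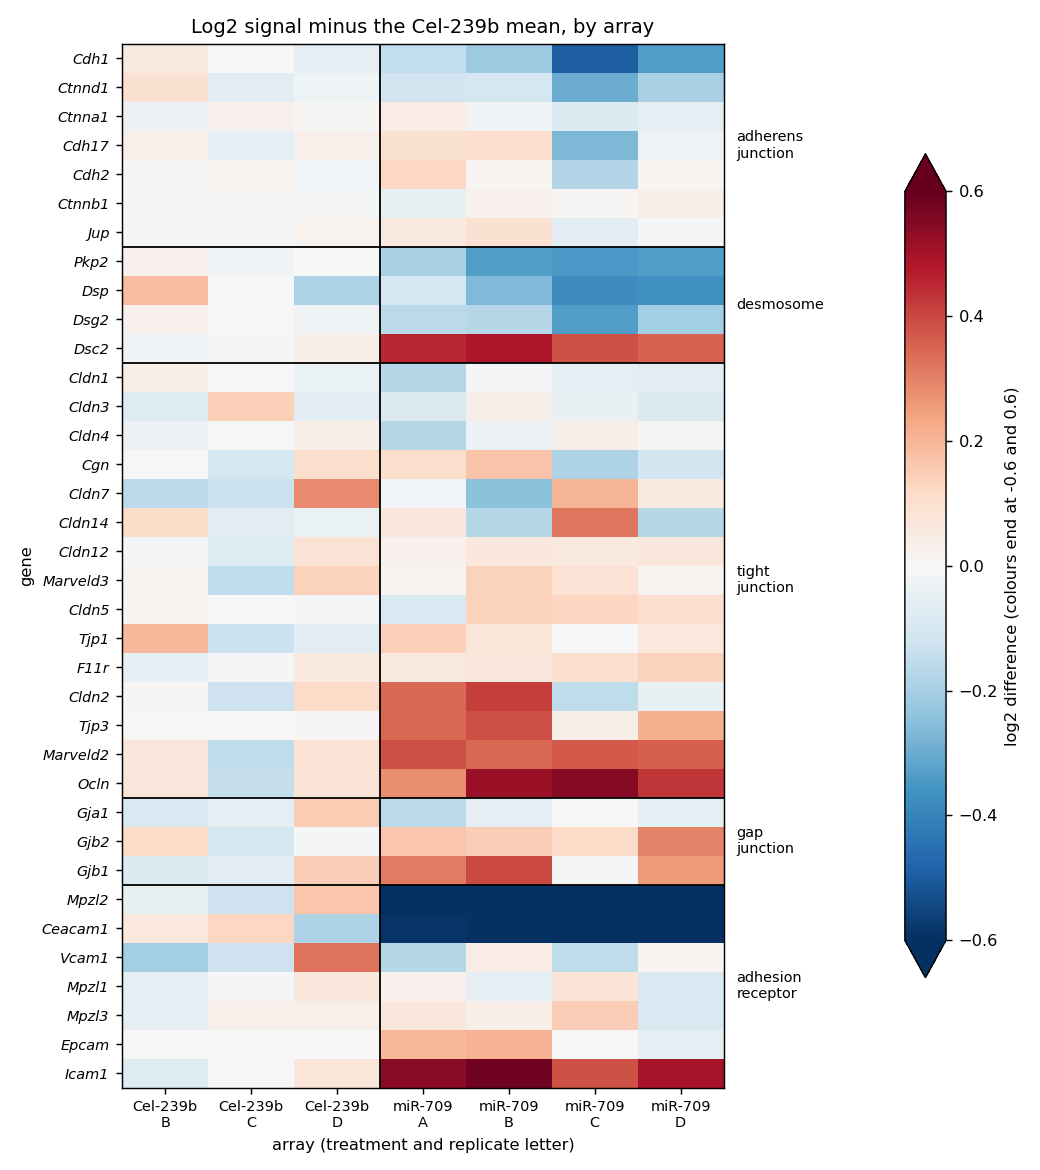
Log2 signal of the 36 genes on each array minus the gene's Cel-239b mean, with arrays in columns and genes in rows, grouped by structure and ordered by fold change. Colours run from blue (lower) to red (higher) and end at -0.6 and 0.6, so *Mpzl2* and *Ceacam1* are at or near the end of the scale on the miR-709 arrays. *Cldn2* and *Tjp3* are red on miR-709 replicates A and B and paler or blue on C and D.

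The 4 miR-709 replicates were not alike over these genes. Replicates C and D, with the higher interferon genes, were both below A and B in 17 of the 36 genes (47.2%) and both above them in 3 (8.33%), against 18.04% and 17.26% of all genes. The averaged difference from the Cel-239b mean over the 36 genes was 0.01, 0.03, -0.07 and -0.05 on replicates A to D. Adherens junction genes averaged 0.00, -0.02, -0.20 and -0.08, and tight junction genes 0.08, 0.13, 0.10 and 0.06. The part of the interferon genes in these differences was not tested.

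Junction genes outside the 36 were read from the same fit. Of 122 measured, in lists of adherens junction, desmosome, tight junction, gap junction and immunoglobulin-like adhesion genes, 1 was lower, none was higher at the adjusted threshold of limma and 121 did not pass the test, or 0.82% called, where 3.28% of all genes were. An unadjusted p under 0.05 was reached by 12, of which 4 were lower and 8 higher, against 15.0% of all genes. A mean signal under 5 was found for 59 of the 122, against 6 of the 36, and the difference in calls between these sets was not tested. The gene that fell was *Ajuba*, a LIM domain protein that binds α-catenin at adherens junctions. It stood at 10.04, 10.15 and 10.09 on Cel-239b replicates B, C and D and at 9.14, 9.18, 8.98 and 9.14 on miR-709 replicates A, B, C and D. The groups were far apart and tight, with a log2 fold change of -0.98 (standard error 0.07, limma adjusted p = 1.1e-04). *Nectin3*, a nectin of adherens junctions named after its values were seen, had a fold change of 0.34 (limma adjusted p = 0.0604), and passed over genes with a mean signal of at least 5 or 6 and without Cel-239b replicate B.

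Regulators of the epithelial state and of its loss were read from the same arrays. Of 23 measured, *Hnf4a*, a master transcription factor of hepatocytes, was higher (log2 fold change 0.57, standard error 0.06, limma adjusted p = 0.00104), *Vim*, the mesenchymal filament vimentin, was lower (-0.40, standard error 0.07, limma adjusted p = 0.0123), and 21 did not pass the test. Limma thus called 8.7% of this list, against 3.28% of all genes. An unadjusted p under 0.05 was reached by 5 of the 23, 2 lower and 3 higher, against 15.0% of all genes. *Hnf4a* was 9.45, 9.43 and 9.31 with Cel-239b and 9.94, 9.95, 9.93 and 10.03 with miR-709. *Vim* went from 12.45, 12.37 and 12.36 to 12.12, 12.02, 11.90 and 11.93. In both genes all miR-709 arrays lay to one side of the controls. *Snai1*, a repressor of E-cadherin, was 5.21 ± 0.05 (SD, n = 3) and 5.44 ± 0.08 (SD, n = 4), with limma adjusted p = 0.115. The others with an unadjusted p under 0.05 were *S100a4*, at a fold change of 0.20 (limma adjusted p = 0.244), and *Klf5*, at -0.22 (0.332). Of the 9 hepatocyte markers, *Cps1*, an enzyme of the urea cycle (0.68), *Tat*, an enzyme of tyrosine breakdown (0.61), and *Hnf4a* were higher, none was lower and 6 were not called. That is 33.3% of the list, against 3.28% of all genes, and the part of brightness in it was not tested. *Hnf4a* kept its call in all 20 alternatives, *Tat* in 17, *Vim* in 16 and *Cps1* in 14. Single arrays that ended a call were Cel-239b replicates B and C for *Vim* (adjusted p = 0.060 and 0.0528), and Cel-239b replicates B and D and miR-709 replicates B and C for *Cps1* (0.0742, 0.0544, 0.0525 and 0.0554). Without miR-709 replicates C and D the calls of *Vim* (0.122), *Tat* (0.0521) and *Cps1* (0.0789) were lost, as they were with the methods' t-test (0.0787, 0.105 and 0.157).

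**Figure D4:**
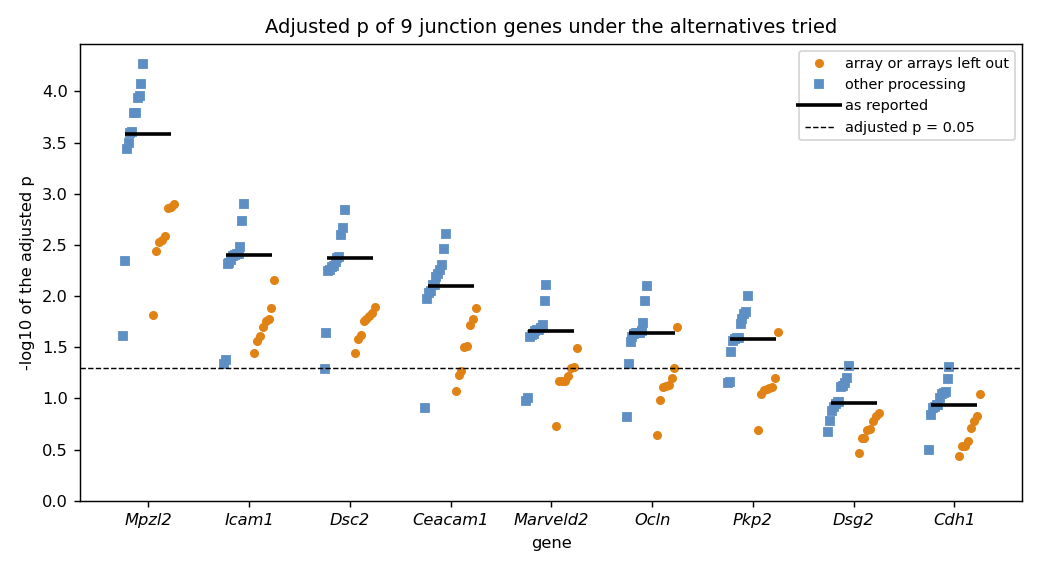
Adjusted p of 9 junction genes on a -log10 scale (vertical axis), as reported (black bars), with arrays left out (orange circles) and under other processing (blue squares), with the dashed line at an adjusted p of 0.05. *Mpzl2* and *Icam1* lie above the line in all 20 alternatives, *Dsc2* in 19, *Ceacam1* in 16, *Marveld2* in 13, *Ocln* in 12 and *Pkp2* in 11, while *Dsg2* and *Cdh1* are above it in 1 each.

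All 7 called genes kept their direction in all 20 alternatives. The 22 genes with an unadjusted p of 0.05 or more had fold changes between -0.08 and 0.14, and their 95% confidence intervals ran from -0.34 at the lowest to 0.45 at the highest. The median standard error over the 36 genes was 0.07, close to the 0.08 of all genes, and the number of arrays limits the precision. A mean signal under 5 was found for 6 of the 36, *Cdh17*, *Cldn7*, *Marveld3*, *Gja1*, *Vcam1* and *Epcam*, and a change of such a dim gene may not be seen.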

How the data were processed

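The authors hybridised total RNA to Affymetrix Mouse Gene 1.0 ST arrays and processed the scans in Partek with RMA, which corrects background, quantile-normalizes the arrays and summarises probes into probe sets. Versions are not given in the sources used here. The deposited table holds log2 signals by probe set, used as given. Of 28853 probe sets, 21789 carried 1 symbol, 1621 several and 5443 none, and 21698 were named through RefSeq gene numbers. A probe set may cross-hybridise with transcripts of related genes. No arrays held identical values.

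The log2 signals were fitted with limma (version 3.58.1, R version 4.3.3; lmFit, eBayes, 2-sided, Benjamini-Hochberg over 19938 genes), after the script was tested on simulated data. The methods' t-test is the study's 1-way ANOVA for 2 groups, given here with a Benjamini-Hochberg adjustment that the study does not name. Exact permutation used scipy (version 1.17.1). Called genes are given by array, genes with an unadjusted p under 0.05 by group means, the others by fold change, and from each other list every called gene, up to 4 in a direction. Alternatives were cyclic loess, a further quantile normalization, median centring, mean-signal filters of at least 5 or 6, the mean of probe sets, all probe sets, limma-trend, the methods' t-test, array weights, the replicate letter as a block, each array left out, and miR-709 replicates C and D left out together. The genes and lists were chosen with earlier results of these data known. Promoters are from RefSeq (GRCm38.p6), with entries for 25 of the 36 genes.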

Additional observations from a re-analysis of the deposited data

Results flagged for a closer look

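*Pkp2* on the miR-709 arrays drew attention because 1 array lay far from the others of its group. Replicate A was at a log2 signal of 9.49, while B, C and D were at 9.35, 9.34 and 9.35, so that the gap to the nearest took up 0.933 of the range of the group (Dixon's ratio). Without replicate A the log2 fold change was -0.337 instead of -0.301 (adjusted p = 0.0225 from limma). This check was made for 36 genes on the 4 miR-709 arrays, and chance alone gives about 1 such array in 20 groups.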

How the results depend on the processing

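Of the 36 genes, 3 were lower and 4 higher as reported. The count of lower genes was 5 over genes with a mean signal of at least 6, where *Cdh1* (adjusted p = 0.0495) and *Dsg2* (0.0478) passed, 1 with the methods' t-test and 1 without miR-709 replicates C and D, and it ran from 1 to 3 with single arrays left out, at 1 without Cel-239b replicate B or C. The count of higher genes was 2 with the methods' t-test and 2 without miR-709 replicates C and D, and ran from 2 to 3 with single arrays left out, at 2 without miR-709 replicate B, C or D. Of 122 other junction genes, 1 was lower in all 20 alternatives. The count of higher ones, 0 as reported, was 1 with a mean signal of at least 5 and 1 with at least 6 (*Nectin3*), and ran from 0 to 1 with single arrays left out (*Nectin3* without Cel-239b replicate B, *Dsg1c* without miR-709 replicate A). *Dsg1c* was dim, with a mean signal of 3.67, and its arrays overlapped. Over all genes, 92 to 366 were lower and 76 to 555 higher across the alternatives.

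Whether arrays of the same letter share a preparation is not stated, and these values cannot decide it. Their deviations correlated at 0.0189 for B, 0.0167 for C and 0.0462 for D. Of the 6 arrays B to D, 4 correlated best with their own letter. Cel-239b replicate C correlated best with miR-709 replicate A, at 0.0778. The letter as a replicate block leaves miR-709 replicate A without a partner. With it, 2 of the 36 genes were lower and 2 higher, and 1 other junction gene was higher (*Dsg1c*, at a mean signal of 3.67). *Dsc2* then had adjusted p = 0.0517, *Marveld2* 0.0993 and *Pkp2* 0.0707.

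Fold changes that turned sign were all of genes that did not pass the test. With the replicate block they were -0.007 for *Cldn14*, 0.003 for *Cldn4* and 0.003 for *Cldn7*. Array weights gave 0.004 for *Cgn* and 0.013 for *Cldn7*, cyclic loess -0.014 for *Ctnnb1* and -0.007 for *Jup*, and further quantile normalization -0.002 for *Ctnnb1*. Without miR-709 replicates C and D they were 0.095 for *Cdh17*, 0.068 for *Cdh2*, 0.138 for *Cgn*, -0.050 for *Cldn14*, 0.012 for *Ctnna1* and -0.008 for *Ctnnb1*. With single arrays left out the range was -0.070 to 0.053 for *Cdh17*, -0.050 to 0.050 for *Cdh2*, -0.067 to 0.053 for *Cgn*, -0.090 to 0.073 for *Cldn14*, -0.085 to 0.025 for *Cldn3*, -0.067 to 0.003 for *Cldn4*, -0.080 to 0.140 for *Cldn7*, -0.003 to 0.023 for *Ctnnb1*, -0.115 to 0.005 for *Gja1*, -0.007 to 0.047 for *Jup*, -0.012 to 0.132 for *Marveld3*, -0.040 to 0.022 for *Mpzl1* and -0.168 to 0.098 for *Vcam1*. The cause of these shifts was not tested.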
